A study of Mus musculus with 4 samples.

Results

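The replication-dependent histone genes were described in 32Dcl3-Abl1ko cells that grew with or without interleukin-3 (IL-3). They were the genes whose names begin with Hist1h, Hist2h, Hist3h or Hist4h, and 65 of the 23756 genes in the count table met this rule. Of these, 62 passed the expression filter and were tested among 16535 genes. 32Dcl3 is a mouse hematopoietic cell line that depends on IL-3 for growth. In all 4 libraries Abl1 had been edited with CRISPR/Cas9 delivered by a lentiviral vector, and infected cells had been selected with puromycin. The study's methods state that single clones were then picked, while its results speak of cell populations derived from the guides. The group Abl1ko/IL3+ (2 libraries) was kept in IL-3, and the group Abl1ko/IL3- (2 libraries) grew out after IL-3 had been withdrawn stepwise. The sources used here do not tie the guides or clones to the libraries, so the p-values measure only the spread between these libraries. Total RNA was depleted of ribosomal RNA before sequencing, a preparation that does not select for poly(A) tails.

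Histones package DNA into nucleosomes, whose core holds H2A, H2B, H3 and H4, and the linker histone H1 binds the DNA between cores. Replication-dependent histone genes are clustered, lack introns and are transcribed mainly in S phase, when new DNA has to be packaged. Their mRNAs end in a conserved stem-loop in place of a poly(A) tail, and the stem-loop binding protein SLBP is needed for their processing, translation and turnover. Some members also give polyadenylated transcripts that run past the stem-loop, in particular in cells that leave the cycle.

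The 65 members comprised 6 genes of the H1 family, 18 of H2A, 17 of H2B, 11 of H3 and 13 of H4. The positions in GENCODE release M21 (GRCm38) put 24 of them on chromosome 13 between 21715763 and 22043676, and 29 in a second block on the same chromosome between 23531050 and 23764406. A single gene, Hist1h2al, lay at chr13:51202727-51203065. A further 7 members were on chromosome 3 (96219865 to 96263311), 3 on chromosome 11 (58948920 to 58956830) and 1, Hist4h4, on chromosome 6 (136801553 to 136804415). The annotation called 62 members protein coding and 3 pseudogenes (Hist1h2aj, Hist1h2al and Hist3h2bb-ps). It names 70 genes by the same rule, and the other 5, among them the testis forms Hist1h2ba and Hist1h2aa, were not analysed here.

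The stem-loop that defines these mRNAs was searched in the annotated transcripts, and its sequences are shown because they separate H4 from the other families. The search pattern had 2 arms of 6 bases around a loop of 4. A match was found in 45 of 65 members, all with complementary arms. All lay in the 3′ untranslated region, between 21 and 58 bases after the stop codon (median 31). Some models without a match, such as that of Hist1h4k, span no more than the coding sequence. The lack of a match therefore does not show that a gene lacks the stem-loop. Of 141767 transcripts in the annotation, 82 (0.0578%) matched the pattern, which does not itself require complementary arms. The capitals mark the arms and the lower case the loop, on the coding strand.
Hist1h1c (chr13:23739512-23739527, plus strand): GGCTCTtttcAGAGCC
Hist1h4h and 6 other H4 genes: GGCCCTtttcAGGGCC
Hist1h3c and 5 other genes of H1, H2B and H3: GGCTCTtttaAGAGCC
Hist1h4i (chr13:22040966-22040981, minus strand) and Hist2h4: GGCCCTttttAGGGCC
Hist1h4b and Hist1h4j: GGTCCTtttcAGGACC
The first form was held by 25 genes of H1, H2A, H2B and H3. The remaining 3 forms (Hist1h4a, Hist1h3g and Hist2h2ac) differed from these in the loop and were held by 1 gene each. All 33 matches outside H4 had GGCTCT as the first arm, and 0 of the 12 matches in H4 did.

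Library totals ranged from 48953174 to 60382588 counts, and 3 counts corresponded to between 0.0465 and 0.0627 CPM, the counts scaled to the TMM effective library size. Abl1 had between 1322 and 2256 counts in the 4 libraries, and because the edit need not lower the transcript these counts do not check the labels. The labels call the cells pre-B cells. Of 13 B lineage markers 9 were in the table, with Rag1 at 0 to 4 counts, Vpreb1 at 57 to 157, Cd79a at 43 to 635 and Cd79b at 607 to 1044. Among the myeloid progenitor markers the granule enzyme gene Mpo had between 28978 and 121109 counts and Elane between 130 and 304. The summed level of the B lineage markers was 19.0 to 26.2 CPM, that of 14 myeloid progenitor markers 1849 to 3668 CPM. Kit, in the latter list, was at 0 to 4 counts.

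Levels between genes were compared in FPKM, which divides by the annotated length. The median of the members' mean FPKM over the 4 libraries was 1.06, and 30 of 65 were under 1. Over all genes tested the median was 3.36. The members' levels were uneven. Hist1h1c, a linker histone gene, had 31.9 and 28.4 FPKM in the IL3+ libraries (replicate 1, then replicate 2) and 35.5 and 78.3 FPKM in the IL3- libraries. It took 45.9% and 25.3% of the members' summed counts with IL-3, and 32.8% and 49.2% without. The 95% Wilson interval of the first share, for counting error only, was 44.7% to 47.0%, and the others were as narrow or narrower. The ranges of the 2 groups overlapped.

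Among the H4 genes, which encode one and the same core histone, Hist1h4i was at 8.65 and 22.4 FPKM with IL-3 and at 18.6 and 29.96 FPKM without. Hist1h4h was at 0.925 and 5.31 FPKM with IL-3 and at 5.01 and 3.47 FPKM without. In both genes IL3+ replicate 1 was the lowest library. In H2B, Hist1h2bc was at 3.96 and 11.2 FPKM with IL-3 and at 11.7 and 12.3 FPKM without. Hist2h2be was nearly flat, at 3.97 and 3.06 FPKM with IL-3 and 2.92 and 3.47 FPKM without. It belonged to the 4 members that shared no stretch of 50 bases with another annotated gene.

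In H1, Hist1h1a followed Hist1h1c, at 0.338 and 3.59 FPKM with IL-3 and at 3.44 and 1.65 FPKM without. In H3, Hist1h3d was at 0.652 and 2.16 FPKM with IL-3 and at 2.43 and 2.09 FPKM without, and Hist2h3c1 at 0.145 and 1.42 FPKM with IL-3 and at 2.06 and 2.63 FPKM without. Hist2h3c1 was the one of these 3 genes whose groups did not overlap. In H2A, Hist1h2af was at 0.352 and 7.65 FPKM with IL-3 and at 4.25 and 2.02 FPKM without. Hist2h2aa1 had 50 and 303 counts in IL3+ and 0 and 685 in IL3-. All of its 50-base stretches occur in other annotated genes, most of all in Gm20633, which overlaps it on the opposite strand. The counting could have given its reads to another gene, so its value is uncertain.

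**Figure D1:**
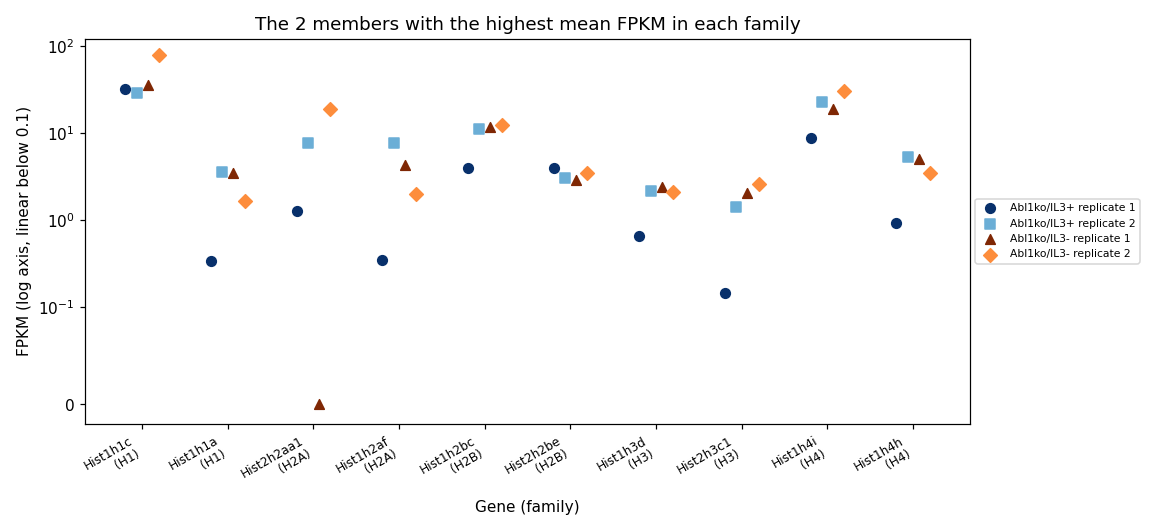
Deposited FPKM (log axis, linear below 0.1) of the 2 members with the highest mean FPKM in each family, with 1 point for each of the 4 libraries. Hist1h1c and Hist1h4i had the highest means, and IL3+ replicate 1 was the lowest library in 7 of the 10 genes.

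Sequence shared with other annotated genes limits the values of single members, and their sums too if shared reads were dropped in counting. Only 4 members shared no 50-base stretch. The shares below count genes that overlap a member as well as copies at other places. The median share of a member's 50-base stretches found in other annotated genes was 54.1%, and it was over 50% in 33 members. The family medians were 73.2% in H2A, 60.4% in H3, 44.1% in H2B, 39.5% in H4 and 1.15% in H1. All 18 H2A genes and Hist1h4b also overlapped an annotated gene on the opposite strand, and no source used here says whether the counting used strand. On the same strand, 6 members overlapped another annotated gene. Hist1h2be was annotated from 23583670 to 23621124 on chromosome 13, a span that takes in part of Hist1h1e on the same strand.

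The members differed most between the 2 libraries grown with IL-3. On the scale of log2 CPM scaled by TMM, taken as a gene's distance from its own average level, the median member stood at -1.11 in IL3+ replicate 1 and at 0.97 in IL3+ replicate 2. Both libraries grown without IL-3 lay between them, at 0.36 and -0.10. For all genes tested these medians lay between 0.01 and 0.04. IL3+ replicate 1 was the lowest library for 50 of 62 members (80.6%, against 31.5% of all genes tested), and IL3+ replicate 2 was the highest for 43 (69.4%, against 28.3%). The median log2 difference of IL3+ replicate 2 over replicate 1 was 2.01. At least 2-fold higher in replicate 2 were 52 of 62 members, against 18.6% of all genes tested, and 0 members were at least 2-fold higher in replicate 1, against 21.4%. Between the 2 IL3- libraries the median log2 difference of replicate 2 over replicate 1 was -0.39, with 3 members at least 2-fold higher in replicate 2 (11.7% of all genes tested) and 20 in replicate 1 (7.77%). The RNA of these bulk libraries cannot tell fewer cells in S phase from less histone mRNA in each cell.

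**Figure D2:**
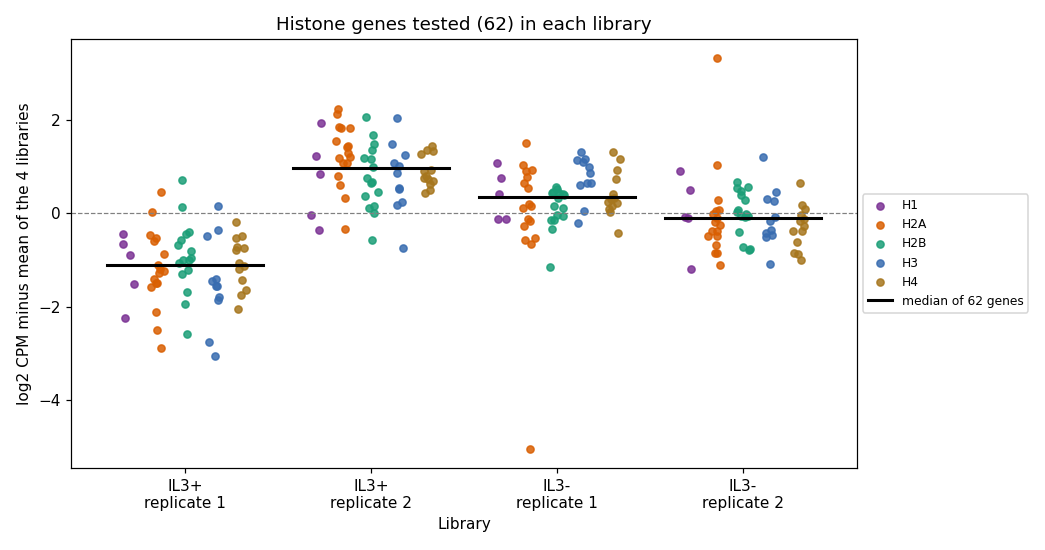
Each point is 1 of the 62 histone genes tested, coloured by family, plotted as log2 CPM (TMM-scaled) minus its mean over the 4 libraries, and the bars are medians. The median lay at -1.11 in IL3+ replicate 1 and at 0.97 in IL3+ replicate 2, with both IL3- libraries between.

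The library that was most often lowest was the same in each family. IL3+ replicate 1 was the lowest library for 5 of 5 H1 genes, 13 of 17 H2A, 12 of 16 H2B, 9 of 11 H3 and 11 of 13 H4. IL3+ replicate 2 was the highest for 3 H1, 13 H2A, 12 H2B, 5 H3 and 10 H4 genes. In H3 the other 6 were highest in an IL3- library, 5 of them in replicate 1, the highest library for 23.1% of all genes tested. Hist1h3b went from 1 count in IL3+ replicate 1 to 93 in replicate 2, with 44 and 20 counts in the IL3- libraries. Hist3h2a, an H2A gene on chromosome 11, went the other way, with 494 and 241 counts in IL3+ and 238 and 336 in IL3-. It overlaps the annotated gene Trim17 on the same strand, and 31.5% of its 50-base stretches occur in other genes. Its counts may therefore include reads of another gene. Hist1h2ak and Hist1h2bm were at 0 counts in IL3+ replicate 1 and at 61 and 47 counts in replicate 2.

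The same order was seen in the 42 genes of a DNA replication list (MCM helicase subunits, polymerases, PCNA and their loaders). Their median difference from the mean was -0.64 and 0.60 in the IL3+ libraries and 0.21 and -0.20 in the IL3- libraries. IL3+ replicate 1 was the lowest library for 34 of 42 and replicate 2 the highest for 35. Their summed level was 2368 and 5511 CPM with IL-3 and 4227 and 3078 CPM without. Mcm2 had 73.1 and 160.1 CPM with IL-3 and 120.7 and 89.4 CPM without.

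Markers of red cell precursors moved with the same libraries. Of the 8 erythroid markers 7 were tested, and 7 of 7 were lowest in IL3+ replicate 1 and highest in IL3+ replicate 2. Their summed level was 265.2 and 11310 CPM with IL-3 and 4981 and 2585 CPM without. The globin gene Hba-a1 had 7559 and 366735 counts in IL3+ and 158709 and 91439 in IL3-. Alas2, the first enzyme of heme synthesis in red cells, had 0 to 11 counts. The part of these markers in the histone values was not tested. Of the remaining cell type lists, 8 mast cell and basophil markers had their highest sum in IL3+ replicate 1 (1223 CPM, against 215.6 to 392.6 CPM in the other 3 libraries), where 3 of the 6 tested were highest and 2 lowest. Macrophage markers (7 of 8 in the table) summed to between 75.1 and 651.4 CPM and T lineage markers (5 of 8) to between 5.23 and 10.3 CPM.

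**Figure D3:**
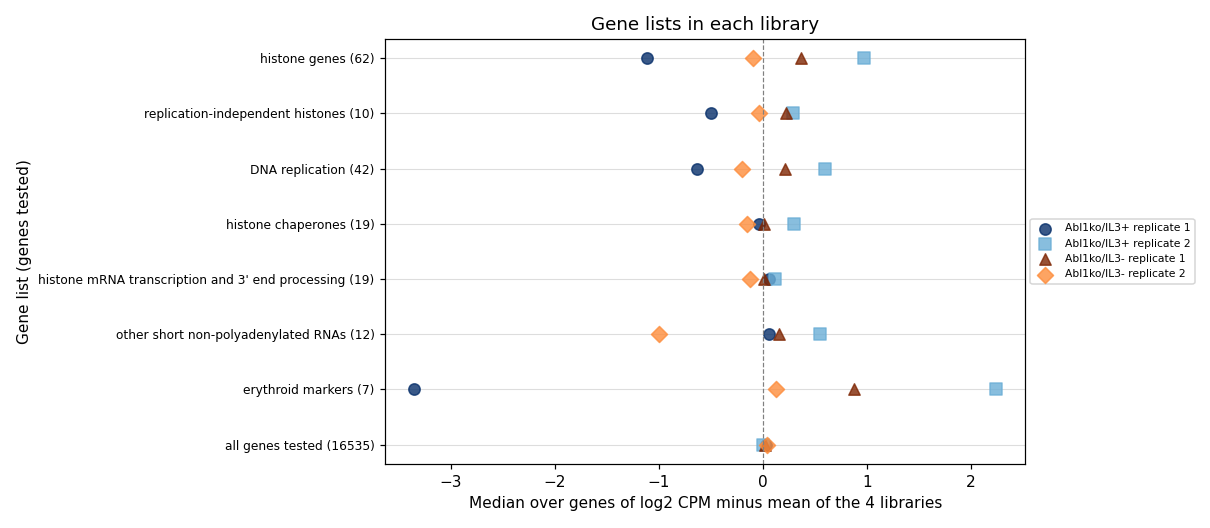
Median over the genes of each list of log2 CPM minus the gene's mean over the 4 libraries, with 1 point per library and the number of genes tested in brackets. The medians of the histone, DNA replication and erythroid lists were lowest in IL3+ replicate 1 and highest in IL3+ replicate 2. The median of all genes tested lay near 0 in every library.

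The comparison of the study's groups asked how transcripts of cells growing without IL-3 differed from those of cells growing with it. By the quasi-likelihood test of edgeR, adjusted after Benjamini and Hochberg, 0 of 62 members passed an adjusted p of 0.05 (background 0% of 16535 genes), and the lowest adjusted p of a member was 0.854. At an unadjusted p under 0.05 there were 0 members, against 978 genes (5.91%). DESeq2 called 0 members, against 1.64% of genes, and gave 1 member an unadjusted p under 0.05, Hist1h2bq, against 8.28% of genes. The fitted log2 fold change, without over with IL-3, was above 0 for 28 members and below 0 for 34, against 48.1% above 0 among all genes. Its median was -0.16, against -0.03 over all genes. The direction of the members' median was not stable. It was 1.61 without IL3+ replicate 2 and -0.78 without IL3+ replicate 1. With all 4 libraries it was above 0 under the replicate block (0.31) and with at least 10 counts in every library (0.042). It was also above 0 with limma on log2(FPKM + 1) (0.052) and on log2(FPKM + 0.1) (0.29). The sum over members was 112.6 and 219.2 CPM with IL-3 and 197.3 and 268.7 CPM without, a log2 ratio of 0.49, and the groups overlapped. Without Hist1h1c the sums were 60.9 and 163.9 CPM with IL-3 and 132.6 and 136.6 CPM without, a log2 ratio of 0.26.

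By family, the median log2 fold change was 0.27 in H1 (3 higher, 2 lower), -0.46 in H2A (5 and 12), -0.19 in H2B (6 and 10), 0.38 in H3 (7 and 4) and 0.07 in H4 (7 and 6). None of these genes passed the test by edgeR. In TMM-scaled CPM the groups did not overlap in 9 members. They were higher without IL-3 in Hist1h1c, Hist1h1d, Hist1h2bq, Hist1h2bh, Hist2h3c1 and Hist2h3c2 (6 of 62, against 19.4% of all genes) and lower in Hist2h2be, Hist3h2bb-ps and Hist1h4b (3 of 62, against 17.9%). Both shares of members were smaller than the background. In FPKM 7 members were higher (20.7% of all genes) and 2 lower (16.2%) without overlap, since Hist1h2bc no longer overlapped and Hist2h2be did.

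**Figure D4:**
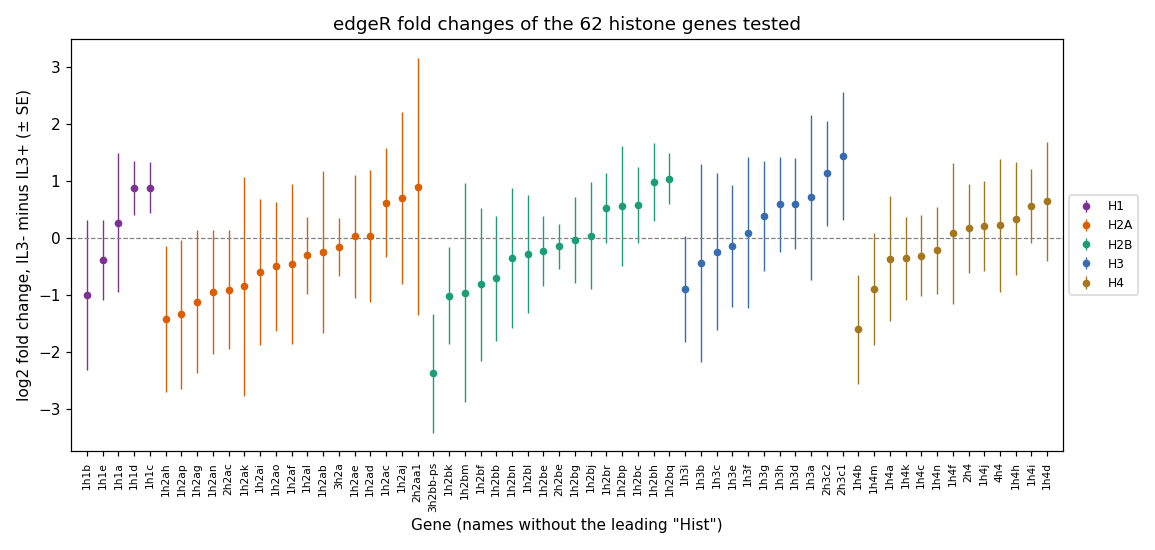
Fitted edgeR log2 fold change (IL3- minus IL3+) with its standard error for the 62 histone genes tested, ordered within each family. The largest fitted values were 1.44 (Hist2h3c1) and -2.38 (Hist3h2bb-ps), and no gene passed an adjusted p of 0.05.

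The 5 highest fitted values were those of Hist2h3c1, Hist2h3c2, Hist1h2bq, Hist1h2bh and Hist2h2aa1. Hist2h3c1, an H3 gene, had 19 and 177 counts in IL3+ and 211 and 301 in IL3-, a log2 difference of 1.44 ± 1.12 (SE, n = 2 libraries per group, adjusted p = 0.919 by edgeR). Its IL3+ libraries were far apart. Hist2h3c2, its neighbour on chromosome 3, had 11 and 37 counts in IL3+ and 51 and 46 in IL3- (log2 1.13 ± 0.92). Hist1h2bq had 230 and 177 counts in IL3+ and 324 and 419 in IL3-, a log2 difference of 1.04 ± 0.45 (adjusted p = 0.854 by edgeR). In this H2B gene the IL3+ libraries were close together, and the IL3- libraries were both above them. The share of 50-base stretches found in other genes was 97.3% in Hist1h2bq. In Hist2h3c1 every such stretch occurred in another annotated gene, most of all in Gm20634, which overlaps it on the same strand. The counts of both genes are therefore uncertain too. Hist1h2bh had 52 and 113 counts in IL3+ and 137 and 163 in IL3- (log2 0.98 ± 0.68). Hist2h2aa1, whose counts are given above, had a fitted 0.90 ± 2.26.

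The 5 lowest fitted values belonged to genes with few counts. The pseudogene Hist3h2bb-ps had 16 and 19 counts in IL3+ and 2 and 4 in IL3-, a log2 difference of -2.38 ± 1.04 (adjusted p = 0.854 by edgeR). Hist1h4b had 21 and 59 counts in IL3+ and 13 and 11 in IL3- (log2 -1.60 ± 0.96). In both genes the groups were apart. Hist1h2ah had 8 and 65 counts in IL3+ and 16 and 9 in IL3- (log2 -1.42 ± 1.28), and Hist1h2ap 8 and 72 in IL3+ and 19 and 10 in IL3- (log2 -1.34 ± 1.30). Hist1h2ag had 5 and 29 counts in IL3+ and 5 and 10 in IL3- (log2 -1.12 ± 1.26). In these 3 H2A genes the higher fitted level with IL-3 came from IL3+ replicate 2 alone. The testis H1 gene Hist1h1t was not tested, with 0 and 8 counts in IL3+ and 4 and 4 in IL3-. The other members that did not pass the expression filter were Hist3h2ba (0, 8, 4 and 0 counts) and Hist2h2ab (0, 14, 0 and 0).

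Hist1h1c and Hist1h1d had smaller standard errors. Hist1h1c had 51.7 and 55.4 CPM with IL-3 and 64.7 and 132.1 CPM without, a log2 difference of 0.88 ± 0.44 (adjusted p = 0.860 by edgeR). Hist1h1d had 5.35 and 9.77 CPM with IL-3 and 13.4 and 14.3 CPM without, a log2 difference of 0.87 ± 0.48 (adjusted p = 0.873 by edgeR). In both, each IL3- library exceeded each IL3+ library, although replicate 1 of the IL3- group was close to the IL3+ group in Hist1h1c.

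The replication-independent histones are made from ordinary polyadenylated mRNAs. Most of those listed replace core histones outside S phase, while H1f0 is a linker histone. They had far higher FPKM than the members. How reads shared between gene copies were counted is not known. If they were dropped, the members' sum would be too low. Their median of mean FPKM was 100.7 over 10 genes, and their summed FPKM exceeded that of the 65 members 9.46 and 6.12 times with IL-3 and 6.99 and 5.11 times without. Of the 10, 4 had higher and 6 lower fitted values without IL-3, and 0 passed the test. H3f3b, which encodes H3.3, had 477.6 and 611.4 CPM with IL-3 and 882.7 and 921.9 CPM without (log2 0.73 ± 0.34, adjusted p = 0.855 by edgeR). H2afx, which encodes the H2A.X of DNA damage signalling and whose gene gives both transcript forms, had 58.2 and 372.3 CPM with IL-3 and 230.0 and 154.3 CPM without. IL3+ replicate 1 was the lowest library for 6 of the 10 and IL3+ replicate 2 the highest for 7, and the list's median difference from the mean was -0.50 and 0.29 in the IL3+ libraries and 0.22 and -0.04 in the IL3- libraries, the order of the members.

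Among 19 genes of histone mRNA transcription and 3′ end processing, 7 had higher and 12 lower fitted values and 0 passed the adjusted threshold. Slbp had 3676 and 3198 counts in IL3+ and 5203 and 4941 in IL3- (log2 0.74 ± 0.31, adjusted p = 0.854 by edgeR). Npat, the coactivator of histone genes at S phase entry, had 2733 and 1105 counts in IL3+ and 1441 and 1779 in IL3- (log2 -0.05 ± 0.46). Slbp was highest in IL3- replicate 1 and Npat in IL3+ replicate 1, so neither had the order of libraries seen in the members. Sympk, a scaffold of the cleavage complex, had 8527 and 7185 counts in IL3+ and 3134 and 2546 in IL3-, a log2 difference of -1.27 ± 0.35 whose adjusted p was 0.727 by edgeR. It alone of these 19 genes had an unadjusted p under 0.05. Of 19 histone chaperones, 5 had higher and 14 lower fitted values, and 0 passed. Of 42 DNA replication genes, 17 had higher and 25 lower fitted values, and 0 passed.

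Of 12 other short RNAs without poly(A) tails that were tested, 1 had a higher and 11 a lower fitted value, and 0 passed. Among all genes tested, 48.1% had a fitted value above 0. IL3- replicate 2 was the lowest library for 11 of the 12 (91.7%, against 15.1% of all genes tested). The summed level of all 19 such RNAs in the table was 451.6 and 439.8 CPM with IL-3 and 650.2 and 133.7 CPM without. Most of it came from Rn7s1 and Rn7s2. The part of the RNA preparation in the members' values was not tested. Rn7sk, an RNA that holds back the elongation factor P-TEFb, had 97.9 and 95.8 CPM with IL-3 and 77.3 and 33.5 CPM without. Genes of the cell type lists with an unadjusted p under 0.05 were Mpo (log2 -1.25 ± 0.44), Cd33 (1.84 ± 0.51), Cd3d (4.72 ± 1.62), Cd3g (2.56 ± 0.99), C1qb (-6.12 ± 2.27) and Lyz2 (3.94 ± 0.98), and 0 of them passed the adjusted threshold by edgeR.

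The annotated models of the members differ in how far they run past the stem-loop, and the split that follows was made after the values were seen and carries no test. In 27 members the model ended between 3 and 185 bases after it, in 18 it ran on for 330 to 4884 bases, and in 20 no match was found. The class with no match is mixed. It holds models with the coding sequence only, such as Hist1h4k, and long ones, such as Hist2h2be (chr3:96221119-96223738). Over the 27 members that ended near the stem-loop the summed level was 7.04 and 42.2 CPM with IL-3 and 22.7 and 24.3 CPM without. Over the 18 that ran past it the sum was 80.2 and 121.2 CPM with IL-3 and 127.5 and 199.96 CPM without, and here both IL3- libraries lay above both IL3+ libraries. Without Hist1h1c this sum was 28.6 and 65.8 CPM with IL-3 and 62.8 and 67.9 CPM without, and the groups overlapped. Over the 20 with no match it was 25.3 and 55.9 CPM with IL-3 and 47.1 and 44.5 CPM without. The fitted fold change was above 0 in 9 of 25, 13 of 18 and 6 of 19 tested members, with medians of -0.26, 0.38 and -0.36. Without overlap, 5 of the 18 tested members that ran past the stem-loop (27.8%) were higher, against 19.4% of all genes. The most abundant members, Hist1h1c and Hist1h4i, were in this class, with 840 and 330 bases after the stem-loop. The counts do not show from which side of the stem-loop the reads came.

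**Figure D5:**
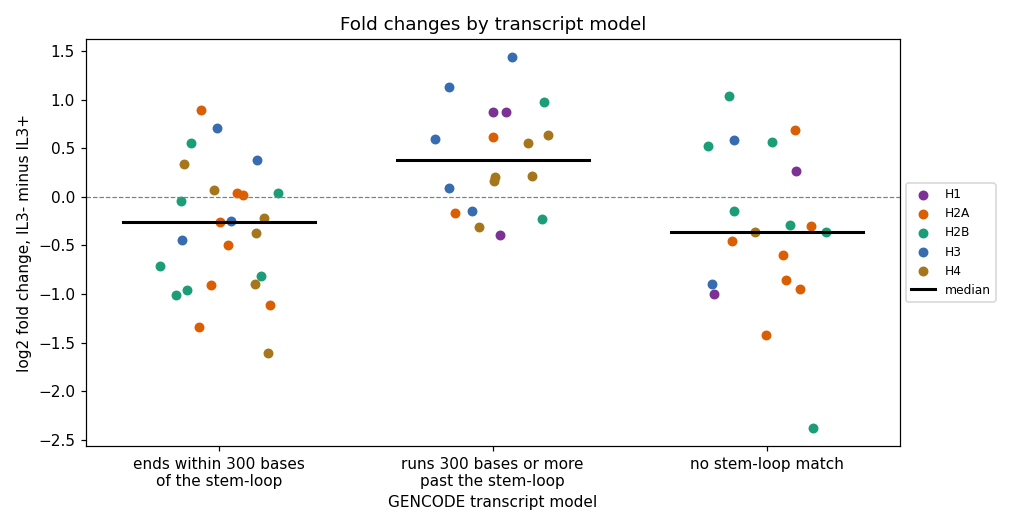
Fitted log2 fold change (IL3- minus IL3+) of the histone genes tested, split by how far the GENCODE transcript model runs past the stem-loop, with bars at the medians. The medians were -0.26, 0.38 and -0.36, and the classes overlapped widely. The class with no match holds both short and long models.

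Many H2A and H2B genes lie head to head and share the stretch between their starts. There were 13 such pairs with a gap of 172 to 301 bases. H2B had the higher mean FPKM in 9 of them, the ratio within a pair ran from 1.03 to 22.2 (median 2.19), and the fitted fold changes had the same sign in 6. The stretches of 2 pairs are shown because one has about the median ratio and the other the largest. Hist1h2ae and Hist1h2bg had a mean of 1.21 and 2.54 FPKM, and Hist1h2ac and Hist1h2bc 0.441 and 9.79 FPKM. Length enters this ratio, and the GENCODE model of Hist1h2bc spans chr13:23684199-23692908. Capitals mark the CCAAT box, the TATA box (as TATAAA) and the octamer (as ATTTGCAT) on either strand, and the letters are those of the plus strand of GRCm38.p6. They run between the RefSeq starts, except that the stretch before Hist1h2bc, which had no RefSeq match, ends at its GENCODE start.
Hist1h2ae to Hist1h2bg (chr13:23571221-23571399): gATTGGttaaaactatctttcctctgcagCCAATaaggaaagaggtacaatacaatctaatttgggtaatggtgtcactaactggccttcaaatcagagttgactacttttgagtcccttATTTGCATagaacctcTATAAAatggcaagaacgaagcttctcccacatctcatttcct
Hist1h2ac to Hist1h2bc (chr13:23683960-23684198): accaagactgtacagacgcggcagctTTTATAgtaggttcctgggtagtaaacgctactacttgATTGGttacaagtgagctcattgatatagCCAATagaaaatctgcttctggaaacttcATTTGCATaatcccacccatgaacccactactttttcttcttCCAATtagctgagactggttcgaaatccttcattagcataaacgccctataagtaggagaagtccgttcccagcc
Both stretches held the octamer once, and both held CCAAT more than once. The windows before the starts of the most abundant H1 and H4 genes are shown for contrast, each on its gene's own strand, with AAACACA marked as well.
Hist1h1c (chr13:23738557-23738806, plus strand): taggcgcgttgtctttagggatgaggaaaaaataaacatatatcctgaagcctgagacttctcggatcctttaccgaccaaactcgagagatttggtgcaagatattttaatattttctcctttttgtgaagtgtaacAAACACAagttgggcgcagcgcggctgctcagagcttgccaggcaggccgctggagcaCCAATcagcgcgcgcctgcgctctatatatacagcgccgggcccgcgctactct
Hist1h4i (chr13:22041363-22041612, minus strand): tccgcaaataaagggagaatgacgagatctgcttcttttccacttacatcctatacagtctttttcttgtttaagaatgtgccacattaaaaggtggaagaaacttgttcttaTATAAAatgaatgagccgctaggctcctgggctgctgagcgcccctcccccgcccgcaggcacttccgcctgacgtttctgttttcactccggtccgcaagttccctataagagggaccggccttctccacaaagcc
The Hist1h1c window held AAACACA and CCAAT. The Hist1h4i window held TATAAA alone of these motifs, near the middle of the window and not close to the start.

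In RefSeq windows from 250 bases before to 50 after the start, 56 of 65 members were matched, with 57 windows. CCAAT on either strand was in 84.2% of them, against 37.4% of all 32851 windows. It was in all windows of H1, H2A, H2B and H3 and in 3 of 12 of H4. TATAAA was in 57.9% (13.6% of all windows) and ATTTGCAT in 19.3% (1.74%), the latter in 6 of 15 H2A and 5 of 15 H2B windows and in 0 of the other families. AAACACA was in 12.3% (7.18%), with 5 of its 7 windows in H1. Windows of head-to-head genes overlap, so that 1 motif can count for both partners. H4 and the other families, which differed in CCAAT and in the stem-loop arm, had the same lowest library for most of their members. The part of these sequences in the order of the libraries was not tested.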

How the data were processed

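Per the labels and the study's methods, total RNA of 4 libraries was depleted of ribosomal RNA and sequenced on an Illumina HiSeq. The authors deposited raw counts per gene, made with Rsubread and featureCounts on GRCm38 by the study's methods, while the submitters' processing notes name STAR, Cuffdiff and mm10. They also deposited FPKM values. Versions, strand, read pairs and multi-mapping are not given in the sources used here. Groups and replicate numbers came from the labels.

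Counts were tested with edgeR 4.0.16 in R 4.3.3 (filterByExpr, TMM, quasi-likelihood test, two-sided, Benjamini-Hochberg over all 16535 genes tested, threshold 0.05). Standard errors were derived from the fold change and its F statistic. Log2 CPM used a prior count of 2. FPKM served for levels between genes, for a further count of members whose groups did not overlap, and for the limma fits. The count floor was 3, and intervals (95%, Wilson) cover counting error only. Stem-loops and 50-base stretches came from GENCODE M21 transcripts, promoters from RefSeq GRCm38.p6. The test was tried on simulated data.

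Genes named were the 2 with the highest mean FPKM per family and the 5 largest rises and falls. Others were members and listed genes with an unadjusted p under 0.05, testis forms, Slbp and Npat. Hist1h1d, Hist3h2a, Hist1h3h, Hist1h3b, Hist1h2ak, Hist1h2bm, Mcm2, H3f3b, H2afx, Rn7sk and the pairs were chosen after their values were seen. Cell type markers illustrate their lists. The members and lists were chosen with earlier results of these data known. Alternatives were DESeq2 1.42.0, library size only, other filters, limma 3.58.1 on log2(FPKM + 1) and log2(FPKM + 0.1), the replicate block and leaving out each library. The 32Dcl3-Abl1 group was not analysed here.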

Additional observations from a re-analysis of the deposited data

How the results depend on the processing

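The count of members past an adjusted p of 0.05 was 0 under every alternative run (edgeR, DESeq2 and limma, with or without each library), and at an unadjusted p it was at most 14, without IL3+ replicate 2. The count over all genes was 0, but 271 with DESeq2, and 0 to 15 when a library was left out, with 15 without IL3- replicate 1. The median log2 fold change of the members (-0.16) was above 0 with at least 10 counts in every library (0.042, 44 members), with limma on log2(FPKM + 1) (0.052) and log2(FPKM + 0.1) (0.29), under the replicate block (0.31) and with the crossed pairing (0.31), which was added after the data were seen. It ran from -0.78 to 1.61 when a library was left out. The cause was not tested beyond these library omissions. Replicate numbers are shared by the labels only: deviations of same-numbered libraries correlated at -0.19, and under the block 0 members passed. The number of members whose groups did not overlap (9) was 16 to 55 when a library was left out, where fewer libraries make separation easier: 52 (83.9%, against 77.1% of all genes) without IL3+ replicate 1, 55 (88.7%, 81.3%) without IL3+ replicate 2, 16 (25.8%, 54.5%) without IL3- replicate 1 and 19 (30.6%, 60.7%) without IL3- replicate 2. The log2 ratio of summed CPM (0.49) ran from 0.11 to 1.05 when a library was left out and was 0.26 without Hist1h1c and 0.48 without Hist2h2aa1. With 2 libraries per group and 30 of 65 members under 1 FPKM, the standard errors of single members reached 2.26 on the log2 scale.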
